A study of Mus musculus with 6 samples.

Results

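The joining segments of the T cell receptor (TCR) alpha locus were followed in naive CD4 T cells with and without a CD4-Cre transgene on floxed Cmtr1. The segments were taken as all genes whose symbol starts with Traj in GENCODE vM21 (GRCm38), which gave 60 of the 46983 genes in the count tables. The libraries were rRNA-depleted total RNA of naive CD4 T cells from lymph nodes of male mice, sorted on surface markers as live (DAPI-) TCRb+ CD4+ cells with a naive phenotype that included CD44-. There were 2 control libraries (Cmtr1 fl/fl CD4cre -) and 4 libraries labelled Cmtr1 cKO (Cmtr1 fl/fl CD4cre +), so that both groups carried the floxed alleles and they differed in the transgene. CD4-Cre recombines floxed alleles from the double-positive thymocyte stage on. The ages of the mice are not given in the sources used here, nor is it said that each library came from a separate mouse, so p-values measure only the spread between these libraries, which may be technical.

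The TCR alpha chain is made without D segments. In thymocytes the RAG recombinase joins 1 Trav variable segment to 1 Traj segment, and splicing then links the joined V-J exon to the constant region gene Trac. Joining removes the DNA between the chosen pair, so segments on the far side of the chosen Traj leave the allele, while those between it and Trac stay in the intron of the primary transcript. Further rounds of joining can replace a first product, moving toward Trac. CMTR1 is a cap methyltransferase, which modifies the ribose at the start of capped transcripts.

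The segments lie on the plus strand of chromosome 14, from Traj61 (start 54155005) to Traj1 (end 54218842), ahead of Trac (54220521 to 54224206). They span 63.8 kb and end 65.4 to 1.68 kb before the first Trac exon. Exons are 29 to 72 bases long (median 61), gaps between neighbours are 146 to 2606 bases (median 887), and 0 of the 60 overlap an exon of another annotated gene. GENCODE classes 51 as joining genes and 9 as pseudogenes. Most in-frame joining segments carry codons for a Phe-Gly-X-Gly turn. The letters TTNGGNNNNGG, which fit those codons, were searched in the transcript sequences of all 60 segments (matches may overlap). They were found in 46 (76.7%), in 44 of the 51 joining genes and in 2 of the 9 pseudogenes, and in 0 on the other strand. The search took no account of the reading frame, and TTN also covers leucine codons. A match therefore does not by itself show a Phe-Gly-X-Gly turn, as in Traj38 and Traj44. The 8 sequences below are those the results turn on, the most read joining genes (Traj6, Traj22), the most read pseudogene (Traj14), the segment nearest to Trac (Traj1), 2 of the segments that passed the test (Traj50, Traj53) and the segments of 2 semi-invariant receptors (Traj18 of invariant NKT cells, Traj33 of MAIT cells). Capitals mark matches to these letters.
Traj53 (chr14:54162644-54162709, +): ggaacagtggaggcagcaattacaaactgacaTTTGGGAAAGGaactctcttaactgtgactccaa
Traj50 (chr14:54167590-54167652, +): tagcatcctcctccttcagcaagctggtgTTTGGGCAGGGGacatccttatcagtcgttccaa
Traj33 (chr14:54185358-54185414, +): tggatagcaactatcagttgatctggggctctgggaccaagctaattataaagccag
Traj22 (chr14:54197248-54197307, +): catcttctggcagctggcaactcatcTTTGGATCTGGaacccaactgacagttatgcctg
Traj18 (chr14:54200777-54200842, +): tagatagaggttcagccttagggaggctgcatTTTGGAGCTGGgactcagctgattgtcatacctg
Traj14 (chr14:54205111-54205144, +): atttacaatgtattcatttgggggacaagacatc
Traj6 (chr14:54212688-54212749, +): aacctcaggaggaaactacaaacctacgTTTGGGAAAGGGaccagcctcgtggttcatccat
Traj1 (chr14:54218814-54218842, +): gtgtgcagatagctgctccatctttcctg
No match to these letters was in the windows of Traj33, Traj14 and Traj1. Traj33 is classed as a joining gene, so a missing match does not by itself mark a pseudogene.

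The way reads were counted bears on every value. In the gene counts of STAR a read counts for a gene only if it maps to 1 place and overlaps exons of 1 gene. With GENCODE vM21, a spliced read that runs from a Traj exon into Trac or back into a Trav exon would overlap 2 genes and enter neither count. Which annotation was used for counting is not known, and the share of spliced and unspliced RNA in these counts cannot be told apart. Reads in no annotated exon (N_noFeature) made up 37.2% and 34.0% of uniquely mapped reads in controls 1 and 2, and 52.3%, 51.6%, 46.7% and 38.0% in Cmtr1 cKO 1 to 4. The widest 95% Wilson interval was ± 0.0225 percentage points, for counting error only. The group means of 35.6% ± 2.3 (SD, n = 2) and 47.2% ± 6.6 (SD, n = 4) gave p = 0.133 (exact permutation test over libraries, two-sided), and the smallest p that 2 against 4 libraries allow is 0.0667. Gene counts per library were 9513874 to 11949838. Levels are given in CPM, the reads of a gene per 1000000 reads counted for genes, with library sizes scaled by TMM (the trimmed mean of M-values). Cmtr1 itself stood at 11.2 and 11.4 CPM in the control libraries, against 16.0, 19.8, 14.6 and 7.57 CPM in libraries 1 to 4 of Cmtr1 cKO. The overlapping gene Gm28043 covers 37 of its 61 distinct annotated exons on the same strand and the deleted exon is not given, so its count says nothing on whether the labels hold.

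The sort marker Cd4 was present, at 766 ± 15 CPM (SD) in the controls and 820 ± 31 CPM (SD) in Cmtr1 cKO. Of 6 naive CD4 T cell markers, Cd4 among them, 1 was called lower and 0 higher in edgeR. They summed to 3806 to 3842 CPM in the control libraries and 3610 to 4191 CPM in Cmtr1 cKO. The 1 called was the naive T cell chemokine receptor gene Ccr7, which fell from 464 ± 4 to 361 ± 45 CPM (SD, edgeR adjusted p = 0.0433). Of 5 markers of activated or memory T cells, summed to 129 to 136 CPM in control libraries and 107 to 153 CPM in Cmtr1 cKO, the proliferation gene Mki67 rose from 12.1 ± 2.6 to 26.3 ± 3.1 CPM (SD, edgeR adjusted p = 0.0013). Cd44, also among them, fell from 40.4 ± 4.0 to 28.6 ± 2.9 CPM (SD, edgeR adjusted p = 0.016). Of 6 thymocyte markers, summed to 41.9 to 47.7 CPM in the control libraries against 43.7 to 51.5 CPM in Cmtr1 cKO, Rag2 and Ptcra were at 0 in all libraries, and Rag1 was at 0 except in Cmtr1 cKO 2 (0.27 CPM). The other 3 were read and did not pass in edgeR, with Dntt at 8.84 to 13.6 CPM and Cd1d1 at 29.4 to 39.4 CPM over the libraries, and Cd8a at 3.96 ± 1.07 and 1.93 ± 0.90 CPM (SD) in the 2 groups (adjusted p = 0.104). Of 6 B cell markers 1 (Ighm) was lower by the test below, with sums of 368 to 381 CPM and 283 to 319 CPM. Their part in the results below was not tested. In such bulk samples fewer cells of a type and less RNA per cell cannot be told apart.

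Taken over all 60 segments, joining segment RNA was higher than in both controls in 3 of the 4 libraries labelled Cmtr1 cKO. The summed Traj level was 423 and 337 CPM in controls 1 and 2. It was 852, 836, 600 and 391 CPM in Cmtr1 cKO 1, 2, 3 and 4. The groups overlapped, because Cmtr1 cKO 4 lay between the controls while Cmtr1 cKO 1 and 2 were at 2.25 and 2.20 times the control mean. The means were 380 ± 61 CPM (SD, n = 2) and 670 ± 219 CPM (SD, n = 4), a ratio of 1.76. The order of the libraries in summed Traj level was the order in their share of reads outside exons, except that control 1 and Cmtr1 cKO 4 changed places.

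Trac, the constant region that ends every alpha chain mRNA, was not higher. It had 751 and 678 CPM in the control libraries against 577, 619, 628 and 651 CPM in Cmtr1 cKO 1 to 4. All 4 Cmtr1 cKO libraries lay below both controls, and the log2 fold change of -0.21 ± 0.08 (SE) did not pass the quasi-likelihood test of edgeR (p adjusted over all genes tested by Benjamini-Hochberg = 0.112). Without Cmtr1 cKO 4 it was -0.23 and passed (edgeR adjusted p = 0.0187). Traj reads per Trac read numbered 0.56 and 0.50 in the controls and 1.48, 1.35, 0.96 and 0.60 in Cmtr1 cKO 1 to 4. Here the groups did not overlap, although Cmtr1 cKO 4 stood close to control 1.

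**Figure D1:**
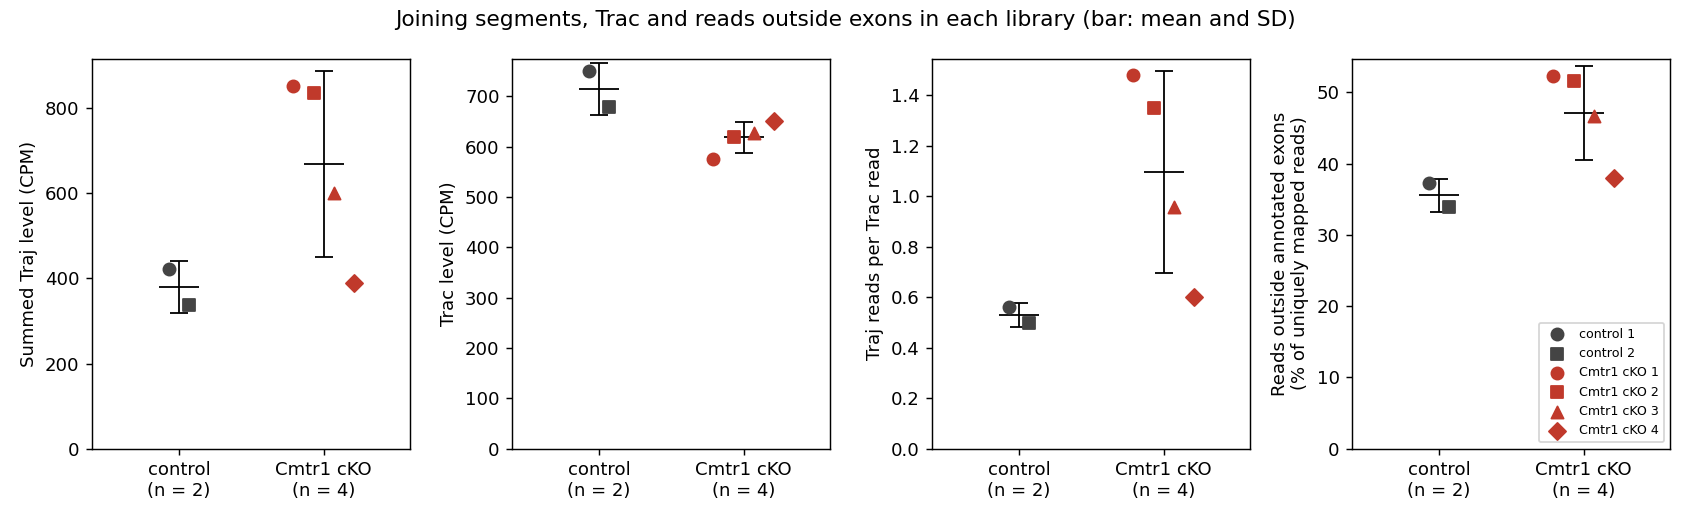
Summed Traj level (CPM), Trac level (CPM), Traj reads per Trac read and the percentage of uniquely mapped reads in no annotated exon, 1 point per library, with the mean and SD of each group as a bar. Cmtr1 cKO 1 and 2 stand highest for Traj (852 and 836 CPM) and for the share outside exons (52.3% and 51.6%), and Cmtr1 cKO 4 lies beside the controls in both.

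Segment by segment, all fold changes pointed the same way and few passed the test. The filter on low counts left 57 of the 60 segments. Traj61, Traj60 and Traj59, the 3 farthest from Trac, had 1 to 7 reads per library and were not tested. All 57 tested segments had a log2 fold change above 0, from 0.28 (Traj57) to 1.87 (Traj46) with a median of 0.89, where 50% of all 12748 genes tested were above 0 and their median was -0.00047. In edgeR 4 segments rose (Traj28, Traj50, Traj16 and Traj53) and 0 fell (0 also in DESeq2), while 43 had an unadjusted p under 0.05. The 4 are 7.02% of the segments tested, beside 4.66% of all genes tested that were called higher, so the count of calls is near the background. A further 19 segments had an adjusted p of 0.05 to 0.1. These segments share 1 locus and 6 libraries, so their common direction is not that many independent observations.

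The number of segments called depended on single libraries and on the settings. Cmtr1 cKO 4 was the lowest Cmtr1 cKO library for 55 of the 57 segments, and it was at or below both controls for 14, between them for 22 and above both for 21. Cmtr1 cKO 3 lay between it and the other Cmtr1 cKO libraries for 50. For 21 segments all 4 Cmtr1 cKO libraries lay above both controls, beside 18.2% of all genes tested, and for 55 segments Cmtr1 cKO 1 to 3 did, beside 28%. Without Cmtr1 cKO 4, 53 of 56 tested segments were called higher by edgeR, where the background was 15.4%, and the median log2 fold change was 1.10. Without any 1 of the other 5 libraries 0 were called, with 7 (without control 2) to 37 (without Cmtr1 cKO 3) at an unadjusted p under 0.05. The backgrounds were then 0.529% and 0.299% without control 1 and 2, and 2.15%, 1.81% and 1.75% without Cmtr1 cKO 1, 2 and 3. DESeq2 called 23 of the 57 higher, with a background of 5.48%. Without a filter on low counts edgeR called 40 of 60, with a background of 4.68%. With at least 10 reads in all libraries 3 of 50 were called (background 5.64%), and with unstranded counts 4 of 57 (background 3.81%). All uniquely mapped reads as library size gave 11 (background 1.58%).

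**Figure D2:**
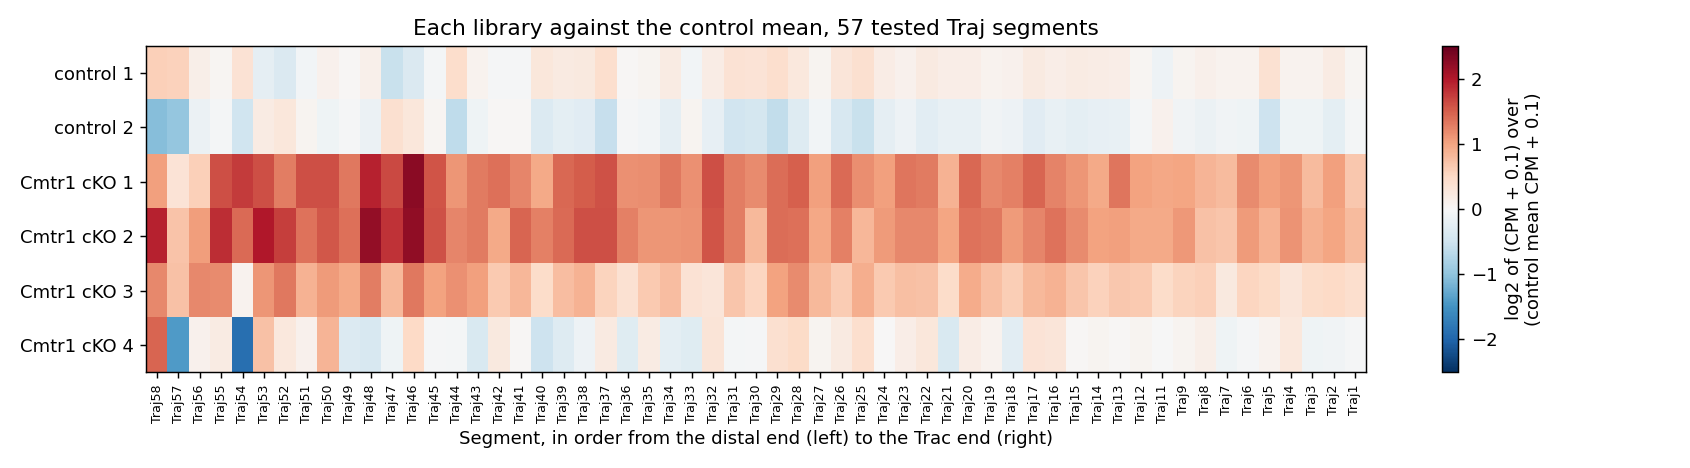
Each column is 1 of the 57 tested segments in order from the distal end (left) to the Trac end (right), each row 1 library, and the colour is the log2 ratio of CPM + 0.1 to the control mean + 0.1. Cmtr1 cKO 1 and 2 are above the control mean along the whole locus (medians 1.23 and 1.22), Cmtr1 cKO 3 less so (0.73), and Cmtr1 cKO 4 stays near it (0.06).

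The segments that passed the test were spread over the locus and differed widely in level. Traj28, the one with the smallest adjusted p, had 6.30 and 4.18 CPM in the control libraries against 15, 13.8, 12 and 7.31 CPM in Cmtr1 cKO 1 to 4. Its groups did not overlap, and its log2 fold change was 1.19 ± 0.29 (SE, edgeR adjusted p = 0.0273). Traj16, a segment 17.3 kb from Trac, had 9.27 and 7.19 CPM against 19.4, 21.1, 15.1 and 10.2 CPM, again without overlap (log2 fold change 0.996 ± 0.269, SE, edgeR adjusted p = 0.0405). Traj50 and Traj53, both among the distal 20 segments and printed above, rested on few reads. Traj50 had 13 and 10 reads in the controls and 37, 36, 22 and 23 in Cmtr1 cKO 1 to 4, with a log2 difference of 1.37 ± 0.36 (SE, edgeR adjusted p = 0.0331). Traj53 had 8 and 10 reads against 30, 40, 18 and 17, with 1.55 ± 0.45 (SE, edgeR adjusted p = 0.0475). All 4 calls ended when any 1 library other than Cmtr1 cKO 4 was left out.

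The largest fold changes belonged to other distal segments. Traj46 had 6 and 9 reads in the controls and 40, 40, 18 and 12 in Cmtr1 cKO 1 to 4, and its log2 difference was 1.87 ± 0.57 (SE, edgeR adjusted p = 0.054). Traj58, the most distal segment tested, had 6 and 1 reads against 8, 16, 8 and 12 (1.64 ± 0.61, SE, edgeR adjusted p = 0.0988). Traj48 had 19 and 14 reads against 65, 80, 36 and 13 (1.58 ± 0.65, SE, edgeR adjusted p = 0.139). In Traj48 the library Cmtr1 cKO 4 was the lowest of all 6, whereas in Traj46 and Traj58 it was above both controls.

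Levels climbed along the locus toward Trac in every library. Per kb of exon, the median of the segments' mean levels was 32.8 CPM in the distal 20 (Traj61 to Traj42), 134 CPM in the middle 20 (Traj41 to Traj22) and 262 CPM in the proximal 20 (Traj21 to Traj1). Across the 60 segments the Spearman rho of level per kb with closeness to Trac was 0.88 for the mean over libraries, and 0.87 (Cmtr1 cKO 2) to 0.90 (Cmtr1 cKO 4) in single libraries. Division by exon length raises the shortest exons most, such as Traj14 (34 bases) and Traj1 (29 bases) at the proximal end. With raw CPM the rho was 0.865 for the mean, and 0.83 (Cmtr1 cKO 2) to 0.89 (Cmtr1 cKO 4) in single libraries. Scaled to exon length plus 100 bases on each side it was 0.870 for the mean. These values describe segments of 1 locus that share libraries and depth and are no test. The profile itself was much alike in all libraries, with rho of 0.96 to 0.99 between the CPM of the 60 segments in the 15 pairs of libraries.

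**Figure D3:**
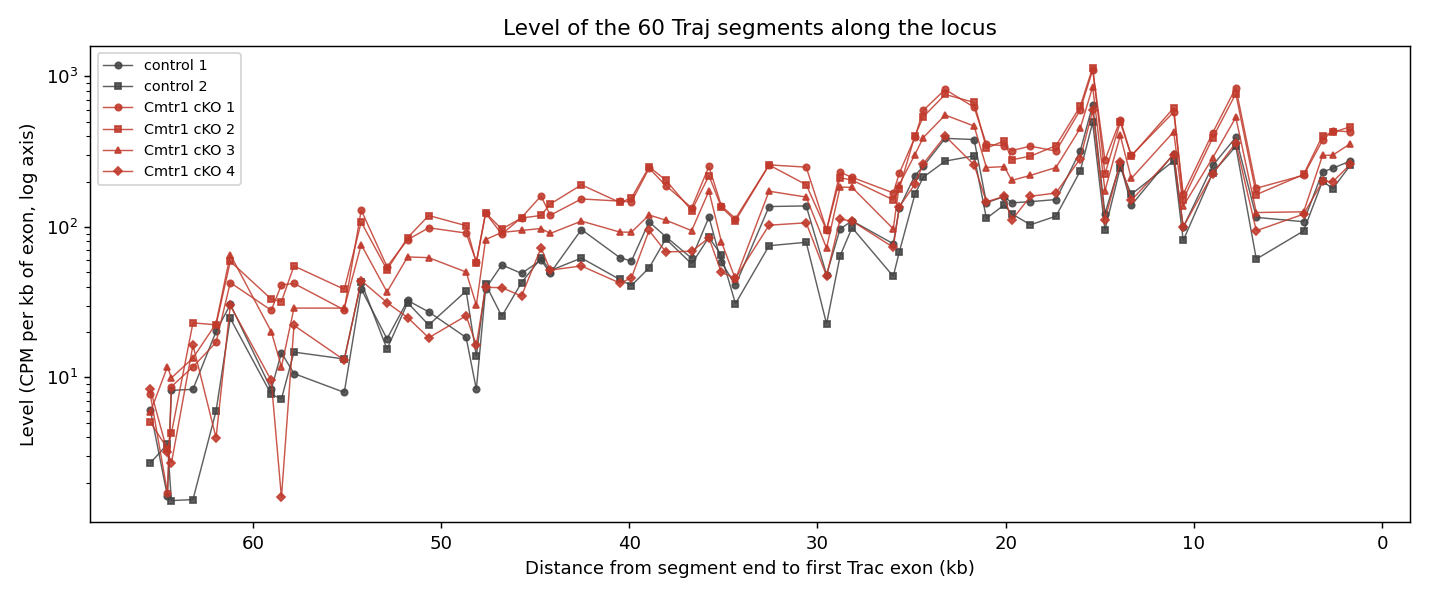
Level of each of the 60 segments (CPM per kb of exon, log axis) against the distance from its end to the first Trac exon (kb), 1 line per library. All 6 lines climb toward Trac (right) with the same local peaks, and those of Cmtr1 cKO 1, 2 and 3 lie above both controls for 55 of the 57 tested segments.

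The fold change was larger far from Trac than near it. The median log2 fold change was 1.19 over the 17 tested distal segments, 0.91 over the 20 middle and 0.72 over the 20 proximal ones, with 2, 1 and 1 of them called higher. Across the 57 tested segments the fold change and closeness to Trac had a Spearman rho of -0.62, and fold change and mean CPM one of -0.54, so that position and level cannot be told apart here. As a share of summed Traj CPM, the distal 20 segments held 6.60% and 7.41% in the controls and 8.61%, 8.98%, 9.06% and 7.09% in Cmtr1 cKO 1 to 4. Cmtr1 cKO 4 again lay between the controls. The proximal 20 held 60.1% and 62.5% against 56.8%, 57.3%, 57.7% and 59.7%, without overlap. The sum of the distal 20 itself went from 27.9 and 25.0 CPM to 73.4, 75.1, 54.4 and 27.7 CPM.

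**Figure D4:**
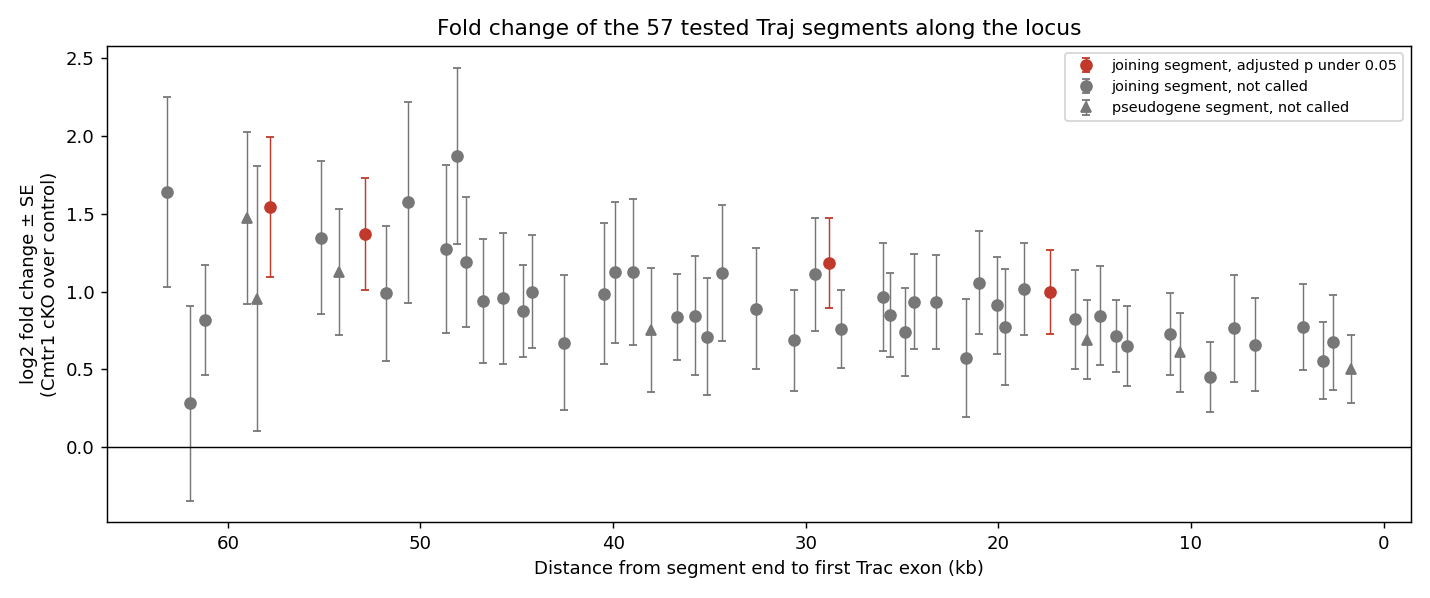
log2 fold change (Cmtr1 cKO over control, with SE) of the 57 tested segments against the distance from the segment's end to the first Trac exon (kb). All points lie above 0, the highest lie among the distal 20 segments (left), and the 4 segments with an adjusted p under 0.05 are red.

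The 6 most read segments lay among the proximal 20, except Traj22, the last of the middle 20 (23.2 kb from Trac). Traj6 was the most read segment, at 24.4 and 21.3 CPM in the control libraries against 52.1, 47.6, 33.1 and 22.5 CPM in Cmtr1 cKO 1 to 4, with a log2 difference of 0.76 ± 0.35 (SE, edgeR adjusted p = 0.19). Traj22 had 23.3 and 16.4 CPM against 49.2, 45.5, 33.2 and 24.1 CPM (0.93 ± 0.30, SE, edgeR adjusted p = 0.0887). In Traj22 every Cmtr1 cKO library exceeded both controls, but in Traj6 Cmtr1 cKO 4 lay between them. Traj21, Traj15 and Traj9, also among the 6 most read, had log2 fold changes of 0.57, 0.82 and 0.73, and none passed. Traj1, the segment next to Trac, had 7.96 and 7.48 CPM against 12.4, 13.4, 10.4 and 7.57 CPM, which is one of the smaller fold changes (0.50 ± 0.22, SE, edgeR adjusted p = 0.147).

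The segments of the semi-invariant receptors lay within the range of the other segments. Traj18, which invariant NKT cells join to Trav11, had 9.53 and 8.06 CPM in the control libraries against 21.2, 18.4, 13.4 and 7.31 CPM in Cmtr1 cKO 1 to 4 (log2 fold change 0.77 ± 0.37, SE, edgeR adjusted p = 0.2). Traj33, which MAIT cells use, had 3.32 and 3.69 CPM against 7.87, 7.71, 4.55 and 2.84 CPM (0.71 ± 0.38, SE, edgeR adjusted p = 0.225). In both, Cmtr1 cKO 4 was the lowest of all libraries. Of 6 NKT or MAIT cell markers, summed to 78.4 to 99.8 CPM in control libraries and 61.2 to 76.6 CPM in Cmtr1 cKO, 4 were tested and 1 fell, the cytokine receptor gene Il18r1, from 64.9 ± 13.5 to 45.2 ± 6.0 CPM (SD, edgeR adjusted p = 0.0331). Zbtb16, the transcription factor that defines both cell types, was at 0 to 0.17 CPM and Mr1, which encodes the molecule that presents antigen to MAIT cells, at 17.9 to 23.3 CPM. The part of these genes in the result was not tested.

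Segments classed as pseudogenes were read as well. Together the 9 held 10.1% and 10.6% of summed Traj CPM in the control libraries against 9.15%, 9.55%, 9.60% and 10.02% in Cmtr1 cKO 1 to 4. Traj14, an exon of 34 bases without a match to the full run of letters searched, ranked behind Traj6 and Traj22. It had 21.9 and 16.8 CPM against 37.5, 38.9, 29.0 and 20.2 CPM, with a log2 difference of 0.69 ± 0.25 (SE, edgeR adjusted p = 0.108). Of the 7 pseudogenes tested 0 passed in edgeR (5 at an unadjusted p under 0.05), with a median log2 fold change of 0.75 beside 0.90 over the 50 joining genes tested, of which 4 passed. DESeq2 called 1 of the 7 higher, Traj14 (0.70, adjusted p = 0.0142).

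The local peaks of the profile recurred in each library. Scaled to exon length plus 100 bases on each side, 5 segments stood at 1.5 times the mean of their 2 neighbours or more in all 6 libraries, a rule chosen after the values were seen. They were Traj56, Traj14, Traj12, Traj9 and Traj6, and for Traj6 the ratio ran from 2.17 to 2.86. Another 6 (Traj46, Traj29, Traj13, Traj11, Traj8 and Traj5) stood correspondingly below their neighbours in all 6. The lowest was the pseudogene Traj8, at 0.208 to 0.264 of the mean of Traj9 and Traj7.

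Of the genes around the segments none that was tested passed in edgeR. Trdc, the delta constant gene that lies on the distal side of the Traj region (54142851 to 54148868) and is lost from an allele by alpha joining, had 9.44 and 9.42 CPM in the control libraries against 12.1, 11.8, 11 and 12.6 CPM in Cmtr1 cKO 1 to 4. All 4 lay above the controls, with Cmtr1 cKO 4 the highest, and the log2 fold change of 0.33 ± 0.14 (SE) did not pass (edgeR adjusted p = 0.13). Dad1, the oligosaccharyltransferase subunit gene beyond Trac (54235479 to 54254104), had -0.20 ± 0.10 (SE, edgeR adjusted p = 0.225). Of 10 genes listed for the locus, 4 were tested and 0 passed in edgeR (2 at an unadjusted p under 0.05) or in DESeq2. The others were read at under 1 CPM, and Trdd1 and Trdd2 at 0.

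Among partners of the alpha chain, 1 of 6 genes of the TCR complex fell. Cd247 (the zeta chain) went from 428 ± 0.5 to 349 ± 17 CPM (SD), a log2 difference of -0.29 ± 0.07 (SE, edgeR adjusted p = 0.0276), while 6.77% of all genes tested were called lower. The beta constant genes Trbc1 and Trbc2 had 0.15 and -0.018 and did not pass. Of 18 V(D)J recombination genes 16 were tested, and 1 of the 16 fell, which is near that background. It was the end-joining ligase gene Lig4, from 14.7 ± 0.05 to 9.63 ± 1.12 CPM (SD, edgeR adjusted p = 0.0231). Of 16 factors known to act at the alpha enhancer or J region 3 rose (18.8%) and 1 fell, beside backgrounds of 4.66% and 6.77%. Myb went from 27.4 ± 4.2 to 42.8 ± 3.6 CPM (SD), Gata3 from 38.8 ± 0.9 to 48.8 ± 2.2 CPM (SD) and Runx1 from 130 ± 1 to 174 ± 26 CPM (SD). The cohesin subunit gene Rad21 went from 190 ± 0.4 to 154 ± 12 CPM (SD). With any 1 of the 6 libraries left out in turn, the call of Myb held in 5 of the 6 fits (not without control 1), those of Lig4 and Gata3 in 2, and those of Cd247, Runx1 and Rad21 in 1 (without Cmtr1 cKO 4). Runx1 stood at 129 and 130 CPM in controls 1 and 2. In Cmtr1 cKO 1 to 4 it had 199.8, 191, 163 and 142 CPM, the same order as for summed Traj. Myb (43.3, 43.7, 46.3 and 37.7 CPM) and Gata3 (45.7, 50.4, 48.5 and 50.4 CPM) did not have this order. Rad21 (143, 148, 157 and 169 CPM) had the reverse order. Among the factors not called, Tcf12 (259, 257, 237 and 221 CPM) had the order of summed Traj as well. Tcf7, Ets1 and Ctcf, also not called, had the reverse order. The share of reads outside exons fell from Cmtr1 cKO 1 to 4 too, so neither order is particular to Runx1 or Rad21. Any link of these genes to the segments was not tested.

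Other receptor segments had smaller median fold changes. Of the 14 TCR beta joining segments 2 rose, or 14.3% beside a background of 4.66% (Trbj1-4 by 0.66 and Trbj1-6 by 0.53 on the log2 scale, calls that held in 2 and 1 of the 6 fits with a library left out), with a median log2 fold change of 0.27, and their sum was 89.9 and 88.3 CPM in the control libraries against 128, 129, 106 and 102 CPM in Cmtr1 cKO 1 to 4. Of 128 TCR alpha variable segments 60 were tested and 0 passed in edgeR (1 at an unadjusted p under 0.05) or in DESeq2, with a median of -0.08. Their sum of 254 and 232 CPM in the controls overlapped with 231, 250, 232 and 241 CPM in Cmtr1 cKO. A class of transcripts annotated inside introns of other genes (sense_intronic) had 14 of 107 genes called higher (13.1%) and 1 lower, beside 4.66% and 6.77% of all genes tested, with a median of 0.65, and summed to 493 and 448 CPM against 801, 782, 656 and 513 CPM. The difference between these classes and the Traj segments was not tested.

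Set against reads outside exons, the joining segments overlapped between the groups. With CPM computed on such reads in place of gene counts, the summed Traj level was 671 and 596 in the controls and 808, 815, 620 and 632 in Cmtr1 cKO 1 to 4. Cmtr1 cKO 3 and 4 lay between the controls, and Cmtr1 cKO 1 and 2 above both, at means of 633 ± 53 (SD) and 719 ± 107 (SD). With these reads as the library size edgeR called 0 of 57 segments higher and 0 lower (2 at an unadjusted p under 0.05), beside 0.235% and 7.54% of all genes. Their median log2 fold change was then 0.27, where this scaling moved the median of all genes to -0.56. When this share entered the model as a covariate, the median over the segments turned to -0.15, 16 of 57 were above 0, 0 were called higher and 1, Traj21, was called lower (-0.60, edgeR adjusted p = 0.0214), beside backgrounds of 2.51% and 2.71%. The share and the genotype move together in these libraries, so how much of the difference belongs to either cannot be told apart.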

How the data were processed

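The authors deposited counts of reads per gene, whole numbers that are not normalized, 1 table per library, in the layout of STAR's gene counts (1 unstranded and 2 stranded columns, per the file layout). The submitters' processing notes name STAR 2.5.2b and edgeR, with mm10 and GRCm38 as builds. Which annotation served for counting is not stated there. Libraries were made with a TruSeq kit and Ribozero Gold depletion, per the labels' protocols. The fourth column was used. It held 5.57 times the reads of the opposite strand in Cmtr1 cKO 3 and 18.7 to 22.7 times in the other libraries. Identifiers without versions matched GENCODE vM21 for 46488 of 46983 genes (98.9%). Rows that name no gene held 52.1% to 62% of reads and stayed out of library sizes.

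From these counts, filterByExpr left 12748 genes, TMM scaled the libraries, and genotype was tested with edgeR 4.0.16 in R 4.3.3 (glmQLFit, robust, glmQLFTest), with Benjamini-Hochberg adjustment over those genes and calls at adjusted p under 0.05. SE is the log2 fold change over the square root of F. The code was tested on simulated data. Sums over segments carry no p. Named segments are the 6 most read, those called (up to 6 in each direction), the 3 with the largest fold change, the most distal and most proximal tested, Traj18 and Traj33. Trac, Trdc, Dad1, Trbc1 and Trbc2 are named beside them. The members and lists were chosen with earlier results of these data known. Alternatives were DESeq2 1.42.0, other filters, unstranded counts, other library sizes, the share outside exons as covariate, a replicate block, and each library left out. Intervals cover counting error only. One marker gene of the sorted cells is not reported here.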

Additional observations from a re-analysis of the deposited data

How the results depend on the processing

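Of the results that answer a comparison, 64 values under alternatives kept direction and call, 15 moved, 1 reversed and 2 newly passed the threshold. With 4 segments called higher as the starting value, DESeq2 gave 23, no filter 40, all uniquely mapped reads as library size 11, reads outside exons as library size 0 and their share as covariate 0 (with 1 called lower, against 0). Leaving out 1 library gave 0 to 53, the 53 without Cmtr1 cKO 4, and 1 control left alone is assumed to vary like the other group. The median log2 fold change of 0.89 turned to -0.15 with the covariate and was 0.27 with reads outside exons as library size, where the log2 ratio of summed levels was 0.18 (0.82 otherwise). All uniquely mapped reads as library size moved the median of all genes to -0.19. Trac had -0.27 to -0.12 with 1 library left out.

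Replicate numbers 1 and 2 occur in both groups but pair nothing in the labels. Deviations of same-numbered libraries from their group means had r = 0.125 and -0.131. With 2 controls these deviations are mirror images, and control 1 against Cmtr1 cKO 2 had 0.131. These r therefore cannot decide on a pairing. The replicate block, which by construction compares only libraries 1 and 2 of each group with 1 residual degree of freedom, called 56 of 57 segments higher (background 18.8%) and Trac lower (-0.26, adjusted p = 0.00016).

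Among genes named, with the covariate Traj6 had -0.26, Traj14 -0.13, Traj21 -0.60, Traj15 -0.18, Traj9 -0.13, Traj48 -0.66, Traj1 -0.15, Traj18 -0.50, Traj33 -0.56 and Trbc2 0.18. With reads outside exons as library size Traj21 had -0.072, Traj1 -0.11, Trdc -0.22 and Trbc1 -0.40, and Trbc1 had -0.038 with all uniquely mapped reads. Trbc2 was 0.0010 under the stricter filter, 0.0067 without control 1 and 0.035 without Cmtr1 cKO 1, and down to -0.078 without Cmtr1 cKO 4. The cause of these changes was not tested. Depth limits the distal end, since 50 of the 60 segments had 10 reads or more in every library.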

Other observations

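Reads on the strand opposite to the Traj segments, a signal outside the counts used above, were few. They numbered 85 and 61 in the controls and 51, 61, 48 and 51 in Cmtr1 cKO 1 to 4. As a share of the reads on both strands of the segments they made up 1.73% in each control and 0.55%, 0.66%, 0.84% and 1.11% in Cmtr1 cKO 1 to 4. Ambiguous reads, which overlap exons of more than 1 gene, made up 0.75% to 1.09% of uniquely mapped reads, but 4.83% for library Cmtr1 cKO 3. That library also had the lowest ratio of reads between the stranded columns (5.57).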
